A study of Mus musculus with 6 samples.

Results

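The translation initiation and elongation factors are the proteins that load ribosomes onto mRNA, find the start codon and move the ribosome along the message. They were examined here in neural stem cells from the adult mouse brain, in a quiescent and an activated state. The members are all genes whose current symbol begins with Eif or Eef followed by a digit and that lie on array probe sets annotated to exactly 1 gene, leaving out the Y-linked copy of Eif2s3x. This gave 57 genes of 18193 on the array, each represented by its brightest probe set, and 56 of them were bright enough to be tested among 11575 genes. Both cell populations were sorted from the ventricular-subventricular zone, the stem cell layer along the lateral ventricles. Quiescent cells carried GFP driven by the GFAP promoter (GFAP::GFP+) together with surface CD133 and lacked CD24. Activated cells met the same conditions and also carried the EGF receptor (EGFR+). Each population was measured on 3 arrays, called biological replicates in the labels. The sources used here do not give the strain, the exact age or the number of animals behind each sort, and p-values measure the spread between these arrays. The reporter reads the activity of the GFAP promoter and does not mark stem cells alone.

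Initiation starts when eIF2 brings the initiator tRNA to the small ribosomal subunit, helped by eIF1, eIF1A and the large scaffold eIF3. The eIF4F complex, made of the cap-binding protein eIF4E, the helicase eIF4A and the scaffold eIF4G, recruits that subunit to the capped mRNA. eIF4E-binding proteins block eIF4F assembly until the kinase mTORC1 phosphorylates them, and a family of kinases can halt initiation by phosphorylating eIF2. During elongation eEF1A delivers aminoacyl-tRNAs and eEF2 translocates the ribosome. Many mRNAs of this machinery begin with a run of pyrimidines that ties their own translation to mTORC1. Dormant stem cells of several adult tissues are known for low protein synthesis.

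Levels are given as log2 MAS5 signal, and each difference is the activated mean minus the quiescent mean on this log2 scale, ± SE from limma over 3 arrays per group. Calls required an adjusted p (Benjamini-Hochberg, over all tested genes) under 0.05. In total, 27 of the 56 tested members were higher in activated cells and 1 was lower, while 28 were not called. Over all tested genes 17.3% were called higher and 17.6% lower (34.9% in either direction). The median difference of the tested members was 0.79, against 0.01 over all tested genes. The members were bright, and dim genes were seldom called higher (8.64% of those with a mean between 6 and 8, and 0 of 4 members). Of genes with a mean of at least 12, 22.9% were higher, against 11 of 19 members at that level. Of genes with a mean between 10 and 12, 23.1% were higher, against 10 of 15 members. Between 8 and 10 it was 18.5%, against 6 of 18 members, and the lower member lay there too. Called increases ran from 1.502-fold to 6.90-fold, and 17 of the 27 were at least 2-fold. All activated arrays lay above all quiescent arrays for 36 members, a pattern found in 25.1% of tested genes, and below them for 3, against 25.5%. In either direction that is 39 of 56 members, against 50.7% of tested genes. Of the members not called, 20 had a difference above 0 and 8 below it, with a median of 0.45.

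**Figure D1:**
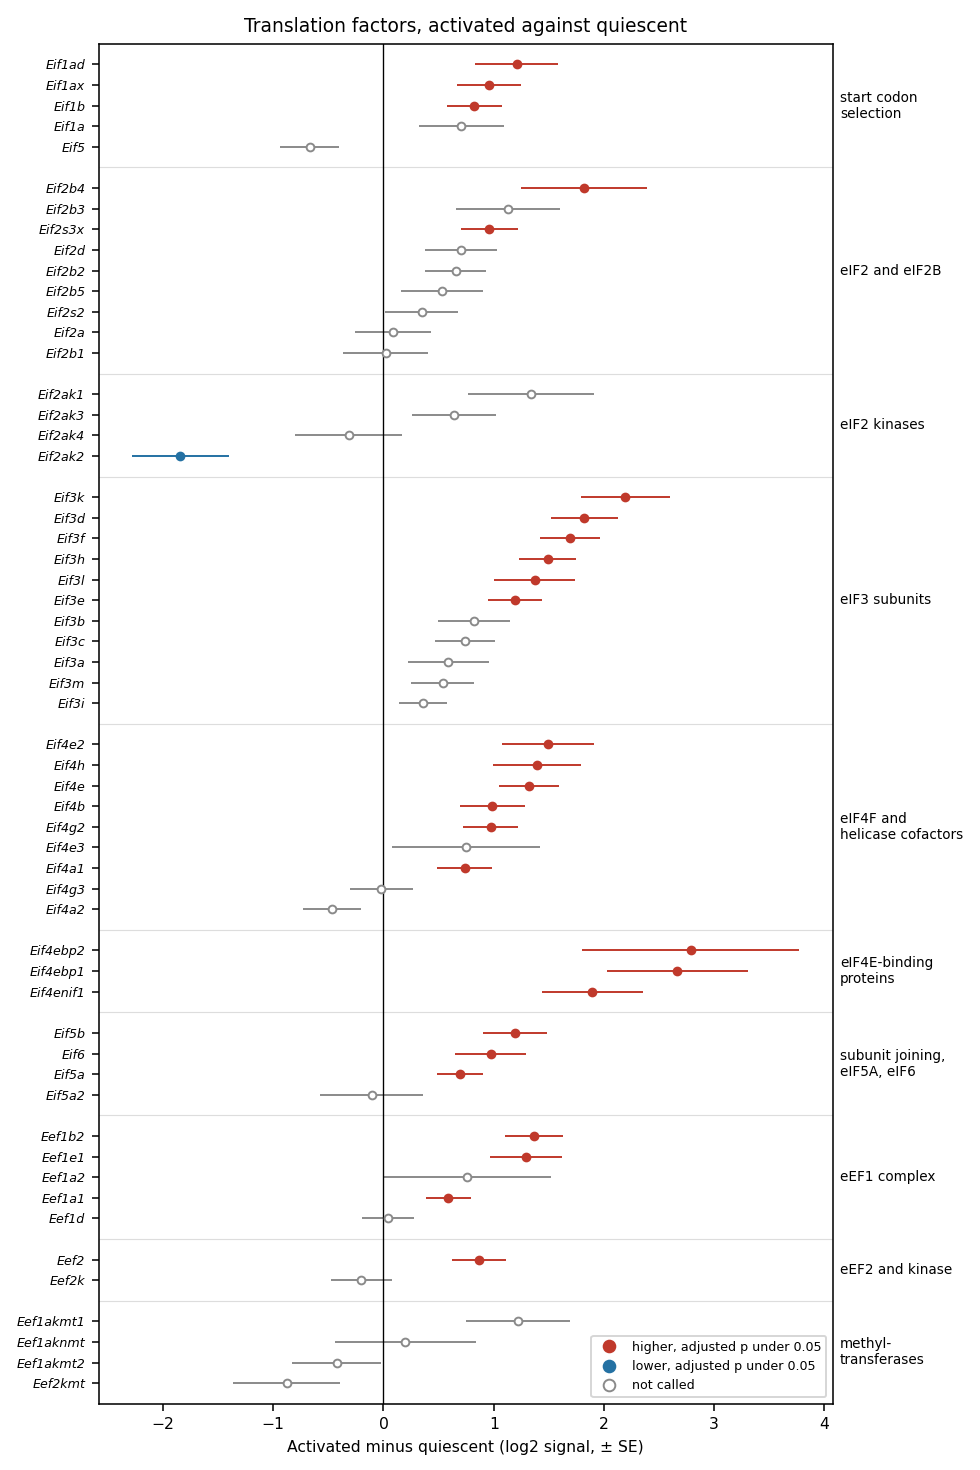
Activated minus quiescent difference in log2 signal (x axis, points with SE bars, 3 arrays per group) for the 56 tested translation factors, grouped by role. Filled red points were higher (27) and the filled blue point lower (1) at an adjusted p under 0.05, and open points were not called. Both eIF4E-binding proteins and Eif3k lie furthest to the right, and Eif2ak2 lies furthest to the left.

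Several properties of the arrays and of the sorted cells moved with the groups, and their part in these results was not tested. The hybridisation controls averaged 14.3 ± 0.53 (SD, n = 3) on quiescent and 13.7 ± 0.05 on activated arrays, and the Gapdh 3′ minus 5′ difference, a measure of RNA integrity, was 2.05 ± 0.52 against 1.37 ± 0.17. Background was 5.67 ± 0.37 on quiescent and 4.60 ± 0.07 on activated arrays. Each of these 3 had a two-sided exact permutation p of 0.1, the smallest possible here. So did the median of all non-control probe sets, 7.25 ± 0.17 on quiescent and 6.70 ± 0.23 on activated arrays (exact permutation p = 0.1). The 3′ minus 5′ difference of actin was -0.05 ± 0.16 in quiescent and 0.07 ± 0.16 in activated cells (exact permutation p = 0.4). Of the genes used in the sort, Egfr was 4.32-fold higher in activated cells (adjusted p = 0.000153). Cd24a, whose product was selected against in both sorts, was 17.5-fold higher there (adjusted p = 0.000223), while Gfap fell by 4.18 ± 0.58 (adjusted p = 0.000444) and Prom1, the gene of CD133, by 1.22 ± 0.32 (adjusted p = 0.0133). The astrocyte and stem cell markers (Gfap, Slc1a3, Aldoc and others) were above background on all quiescent arrays for 10 of 10 genes and on all activated arrays for 9, S100b being at background in activated cells. All 10 were lower there, with summed levels of 16.8 to 17.4 and 14.66 to 15.01. Cycling cell markers were called higher in activated cells for 9 of 9 tested genes, with sums of 12.2 to 13.6 in quiescent and 15.9 to 16.1 in activated cells, and neuroblast markers for 5 of 8, with sums of 11.3 to 13.4 and 15.2 to 15.4. Of the tested markers, 7 of 7 of mature oligodendrocytes, 2 of 3 of ependymal cells, 3 of 4 of endothelial cells and 4 of 5 of pericytes were lower. Of these, 3 of 7 endothelial and 3 of 8 pericyte markers lay at background on all activated arrays. Their sums were 14.0 to 15.9 against 11.1 to 12.4 for oligodendrocytes, 10.56 to 10.64 against 7.70 to 8.35 for ependymal cells, 9.94 to 11.7 against 7.16 to 7.84 for endothelial cells and 12.3 to 13.1 against 8.51 to 9.38 for pericytes. Mature neuron markers, with 1 of 4 tested genes higher, summed to 10.01 to 10.86 and 10.62 to 11.61. Microglial markers, with 0 of 1 called, summed to 8.75 to 9.22 and 7.19 to 7.54. In such bulk samples fewer cells of a type and less RNA per cell cannot be told apart, and scaling of every array to a common mean removes any difference in total RNA.

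Promoter sequences of 46 of the 57 members were found in RefSeq (GRCm38.p6), as windows from 250 bases before to 50 after an annotated start. The E-box CACGTG, a palindrome that reads the same on both strands and the textbook site of Myc-Max dimers, occurred in a window of 12 of the 46 members. It occurred in 7.15% of all windows and in 11.9% of tested genes with a window. Of the 22 members with a window that were higher in activated cells, 8 held it, as did 4 of the other 24. The sequences of 6 higher members are shown because they place the same letters beside genes of the cap complex, eIF3 and elongation. The E-box is in capitals, 20 bases flank it on each side, and each reads in the direction of transcription.
Eif4e, chr3:138527184-138527229, plus strand: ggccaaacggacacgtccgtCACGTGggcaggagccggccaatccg
Eif4a1, chr11:69672587-69672632, minus strand: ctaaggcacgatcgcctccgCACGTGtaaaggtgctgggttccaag
Eif4h, chr5:134639480-134639525, minus strand: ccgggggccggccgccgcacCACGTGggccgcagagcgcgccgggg
Eif3k, chr7:28981907-28981952, minus strand: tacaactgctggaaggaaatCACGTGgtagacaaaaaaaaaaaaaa
Eif3f, chr7:108934327-108934372, plus strand: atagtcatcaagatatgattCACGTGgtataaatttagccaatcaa
Eef2, chr10:81176568-81176613, plus strand: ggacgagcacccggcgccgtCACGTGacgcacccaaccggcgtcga
In these the E-box began 64, 189, 96, 44, 68 and 43 bases before the annotated start. The Eif4e window held another copy, 228 bases before the start. A match of letters is a description of the sequence and not of binding.

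An annotated start at a C followed by at least 4 further pyrimidines, as at the 5′ ends of mRNAs that respond to mTORC1, was sought on the coding strand. It was found for 2 of the 46 members (4.35%), and for 3.06% of tested genes with a window. Both belonged to genes that were higher, as were 22 of the 46 members with a window. They are shown from 10 bases before the start to 20 after it, with the pyrimidine run of 11 bases in capitals.
Eif2s3x, chrX:94212632-94212661, minus strand: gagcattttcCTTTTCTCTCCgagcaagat
Eif3f, chr7:108934405-108934434, plus strand: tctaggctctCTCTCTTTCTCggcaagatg
The annotated start of a gene can lie some bases from the start used in these cells, so the other members were not sorted by this feature.

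Of the 5 tested members grouped under start codon selection 3 were higher, against 17.3% of all tested genes. Eif1ad, which encodes a nuclear relative of eIF1A, read 8.46, 8.82 and 7.96 on quiescent arrays 1 to 3 and 9.63, 9.75 and 9.497 on activated arrays 1 to 3. The groups did not overlap, and it was 1.21 ± 0.38 higher (adjusted p = 0.0295). Eif1ax, the X-linked gene of eIF1A, read 11.64, 11.75 and 10.88 against 12.59, 12.31 and 12.24, 0.96 ± 0.29 higher (adjusted p = 0.0263). Its autosomal counterpart Eif1a read 7.95, 8.34 and 8.17 against 8.70, 8.89 and 8.995, a difference of 0.71 ± 0.39 that was not called (adjusted p = 0.178) although its arrays did not overlap either. The difference between the changes of this pair was -0.25 (exact permutation p = 0.5, 0.9 adjusted over 8 pairs). Eif1b, a close copy of the start codon fidelity factor eIF1, read 11.45, 11.00 and 11.48 against 12.20, 12.18 and 12.03 and was 0.82 ± 0.25 higher (adjusted p = 0.0274). Eif5, which makes eIF2 hydrolyse GTP at the start codon, read 13.42, 13.05 and 12.58 against 12.55, 12.31 and 12.18, with an uncalled difference of -0.67 ± 0.27 (adjusted p = 0.0776) and all activated arrays below all quiescent ones. It was called lower after quantile normalization (adjusted p = 0.0259) and without quiescent array 3 (adjusted p = 0.00975). The difference of Eif5 was -0.03 when arrays were scaled by hybridisation controls (adjusted p = 0.956). With the mean of its probe sets it was -0.36 (adjusted p = 0.352). Its other probe sets differed by 0.40, -0.28, -0.50 and -0.77.

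The eIF2 complex and its exchange factor eIF2B were grouped with Eif2a and Eif2d, which belong to neither. Of these 9 tested members 2 were higher (22.2%, against 17.3% of all tested genes) and 0 lower (limma), with a median of 0.66. Eif2b4, the delta subunit of eIF2B, read 6.76, 8.81 and 9.12 on quiescent arrays and 9.79, 10.34 and 10.02 on activated arrays. Quiescent array 1 stood well below the others, and the gene was 1.82 ± 0.57 higher (adjusted p = 0.0312). Without that array it was 1.08 higher (adjusted p = 0.0474). Eif2s3x, the gamma subunit of eIF2 that holds GTP and the initiator tRNA, read 11.58, 11.63 and 12.25 against 12.73, 12.84 and 12.77, with no overlap, and was 0.96 ± 0.26 higher (adjusted p = 0.0155). Its 3 probe sets gave 0.81 to 1.26. The beta subunit gene Eif2s2 was not called on its brightest probe set (0.35 ± 0.33, adjusted p = 0.441), on which quiescent array 3 read 11.47 and the other arrays 12.53 to 12.74. Fitted on their own, 2 of its 6 probe sets were higher, by 1.61 and 1.29 (adjusted p = 0.00161 and 0.00454). The remaining subunits of eIF2B, Eif2b1, Eif2b2, Eif2b3 and Eif2b5, differed by 0.02, 0.66, 1.13 and 0.53, and none was called. Eif2a and Eif2d, which can deliver initiator tRNA without eIF2, differed by 0.09 and 0.70, also uncalled.

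The 4 eIF2 kinases held the sole member that was lower. Eif2ak2 encodes PKR, the kinase that senses double-stranded RNA and is induced by interferon. It read 10.51, 10.13 and 9.08 on quiescent arrays and 8.22, 7.86 and 8.12 on activated arrays, all activated arrays lying below all quiescent ones, and fell by 1.84 ± 0.44 (adjusted p = 0.00863). Its other probe sets differed by -1.07 and -0.02. The call was lost when all its probe sets were averaged (adjusted p = 0.0753) and when arrays were scaled by hybridisation controls, which gave -1.20 (adjusted p = 0.0732). Eif2ak1, the haem-regulated kinase, read 7.21, 8.77 and 9.72 against 9.62, 10.24 and 9.84, with overlapping groups and an uncalled difference of 1.34 ± 0.57 (adjusted p = 0.0907). Its probe sets disagreed, 1 of them differing by -1.98 when fitted on its own (adjusted p = 0.0215). Eif2ak3, the PERK kinase of endoplasmic reticulum stress, read 8.56, 8.51 and 8.48 against 9.07, 8.81 and 9.58, without overlap, and was not called (0.64 ± 0.38, adjusted p = 0.211). Eif2ak4, the GCN2 kinase of amino acid shortage, read 8.84, 8.59 and 9.51 against 7.86, 8.68 and 9.45, with overlapping groups and a difference of -0.32 ± 0.48 (adjusted p = 0.633).

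In the scaffold eIF3 all 11 tested subunits had differences above 0, with a median of 1.19. Of these 6 were called higher and 0 lower (limma), against 17.3% and 17.6% of all tested genes. All activated arrays lay above all quiescent arrays for 10 of the 11, against 25.1% of all tested genes. Eif3k, a peripheral subunit, read 9.13, 9.52 and 10.67 on quiescent arrays and 12.36, 11.96 and 11.57 on activated arrays. That was 2.19 ± 0.40 higher, or 4.57-fold (adjusted p = 0.00226). Eif3d, a subunit that can itself bind the mRNA cap, read 9.58, 9.79 and 10.16 against 11.42, 12.06 and 11.51 and was 1.82 ± 0.30 higher (adjusted p = 0.00122). Its dimmer probe set differed by -0.81, and the call was lost in the mean of both, which gave 0.50 (adjusted p = 0.329). Eif3f read 10.81, 11.47 and 11.59 against 12.85, 13.11 and 13.00, 1.69 ± 0.27 higher (adjusted p = 0.00101), and was called under every alternative tried. Eif3h, its partner within eIF3, read 11.30, 11.73 and 11.20 against 13.07, 13.00 and 12.62, 1.49 ± 0.26 higher (adjusted p = 0.00163). The mean of its probe sets turned the sign of Eif3h (-0.95, adjusted p = 0.355); it includes 2 probe sets below the dim filter that differed by -2.71 and -1.64. Eif3l and Eif3e were higher by 1.37 ± 0.37 and 1.19 ± 0.25. The core subunits Eif3a, Eif3b and Eif3c, the last of which bridges to eIF1 and eIF5, differed by 0.59, 0.82 and 0.74 and were not called. Neither were Eif3i and Eif3m, at 0.36 and 0.54. All 5 were called higher with the mean of probe sets (adjusted p = 0.0361 for Eif3a, 0.0405 for Eif3b, 0.00757 for Eif3c, 0.0275 for Eif3i and 0.0289 for Eif3m) and when arrays were scaled by hybridisation controls. Eif3c was also called on its brightest probe set whose name marks no cross-hybridisation (1.23, adjusted p = 0.0247), and when activated array 1 was left out (adjusted p = 0.0453). The dimmer probe set of Eif3i was 0.96 higher on its own (adjusted p = 0.0108).

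**Figure D2:**
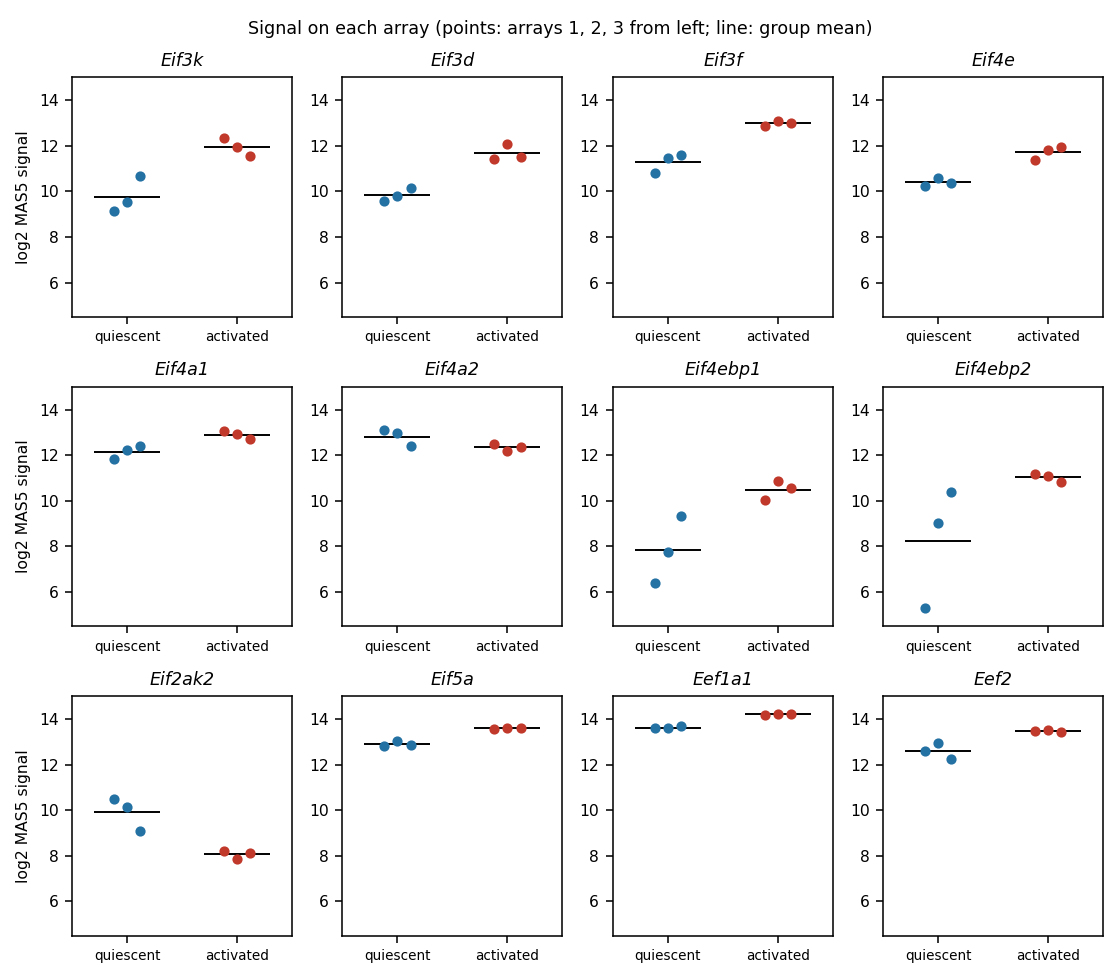
Log2 MAS5 signal (y axis, same scale in all panels) of 12 translation factors on each of the 3 quiescent and 3 activated arrays, with the group mean as a line. Eif3k, Eif3d, Eif3f and Eif4e separate the groups without overlap, Eif4ebp1 and Eif4ebp2 spread widely over the quiescent arrays, and Eif2ak2 is the one called lower in activated cells.

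Of the cap-binding complex eIF4F and its helicase cofactors, 6 of 9 tested members were higher and 0 lower (limma), with a median of 0.97. Of all tested genes 17.3% were higher and 17.6% lower. Eif4e, the cap-binding protein, read 10.24, 10.57 and 10.38 against 11.40, 11.80 and 11.96. The groups were well apart, and Eif4e was 1.32 ± 0.27 higher, or 2.5-fold (adjusted p = 0.0042). Of its other probe sets above the filter, 1 differed by 0.02 and 1 by 0.83, and the call was lost with the mean of all 4 (adjusted p = 0.569). Eif4e2, the cap-binding homologue 4EHP that represses translation, read 11.66, 10.21 and 11.01 against 12.69, 12.95 and 11.72, the arrays of each group being spread over more than 1 unit. It was 1.49 ± 0.42 higher (adjusted p = 0.0183), with probe sets from -1.25 to 1.80. Eif4e3, a further homologue, read 5.95, 7.67 and 5.79 against 7.18, 7.82 and 6.65, close to background and with overlapping groups, and was not called (0.75 ± 0.67, adjusted p = 0.405). Its dimmer probe set was 3.49 higher when fitted on its own (adjusted p = 0.00883). The change of Eif4e did not differ from that of either homologue beyond the arrays' spread, by -0.17 against Eif4e2 (exact permutation p = 0.9) and 0.57 against Eif4e3 (exact permutation p = 0.6), both 0.9 adjusted over the 8 pairs.

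The helicases Eif4a1 and Eif4a2 are close paralogues, and 1 of them was called. Eif4a1, the main helicase of dividing cells, read 11.84, 12.22 and 12.43 on quiescent and 13.06, 12.92 and 12.72 on activated arrays, without overlap. It was 0.74 ± 0.25 higher on its brightest probe set (adjusted p = 0.041) and 2.72 and 1.97 higher on the others when fitted on their own (adjusted p = 0.00019 and 0.000831). The call on the brightest probe set was lost without any single array other than quiescent array 3 (adjusted p from 0.0777 to 0.14), after quantile normalization (adjusted p = 0.0749), with the replicate block (adjusted p = 0.0761) and without the mean-variance trend (adjusted p = 0.109). Eif4a2, the paralogue typical of resting and differentiated cells, read 13.09, 12.98 and 12.38 against 12.51, 12.18 and 12.36, with an overlap and an uncalled difference of -0.47 ± 0.26 (adjusted p = 0.186). The sign of Eif4a2 turned when arrays were scaled by hybridisation controls (0.18), and it was called lower without quiescent array 3 (adjusted p = 0.0236). Within each array, which no scaling affects, Eif4a1 minus Eif4a2 was -1.25, -0.75 and 0.04 on quiescent arrays and 0.55, 0.74 and 0.37 on activated arrays. The groups did not overlap, and the change was 1.205 (exact permutation p = 0.1, the smallest possible, 0.4 adjusted over 8 pairs).

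The scaffold homologue Eif4g2, which lacks the eIF4E-binding site and drives cap-independent initiation, read 11.90, 12.55 and 12.33 against 13.35, 13.15 and 13.21 and was 0.97 ± 0.25 higher (adjusted p = 0.0118). Eif4g3, a full-length scaffold, differed by -0.02 ± 0.28 (adjusted p = 0.961). Eif4b and Eif4h, which stimulate the helicase, were higher by 0.99 ± 0.29 and 1.39 ± 0.40 (adjusted p = 0.0248 and 0.0207). Eif4b read 11.32, 11.16 and 10.53 against 11.77, 11.91 and 12.29. Eif4h read 11.86, 11.04 and 12.87 against 13.12, 13.55 and 13.29, also without overlap. Its 3 bright probe sets, differing by 1.07 to 1.39, have names that mark possible cross-hybridisation, and without such probe sets Eif4h differed by -1.05 (adjusted p = 0.0606). The exon junction helicase gene Eif4a3, the one member too dim to be tested, read 6.68, 6.24 and 6.34 against 4.71, 5.37 and 5.57.

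All 3 tested proteins that bind eIF4E in place of the scaffold were higher, against 17.3% of all tested genes. Eif4ebp2 and Eif4ebp1 had the largest differences of all tested members. Eif4ebp1 read 6.38, 7.74 and 9.34 on quiescent arrays and 10.03, 10.85 and 10.58 on activated arrays. The quiescent arrays spread over nearly 3 units, yet all lay below the activated ones, and Eif4ebp1 was 2.67 ± 0.64 higher (adjusted p = 0.0091). The difference was 1.95 without quiescent array 1 and 3.43 without quiescent array 3. That probe set has a name marking possible cross-hybridisation, and without it the difference was 0.93 (adjusted p = 0.124). Eif4ebp2, the form most studied in brain, read 5.31, 9.05 and 10.37 against 11.17, 11.08 and 10.84. Quiescent array 1 lay at background, and raising it to background gave a fold of 5.75 between the means. That fold does not allow for the spread between arrays. The fitted difference of Eif4ebp2 was 2.79 ± 0.98 (adjusted p = 0.0489). The call was lost in several alternatives, for example without quiescent array 2 (adjusted p = 0.0702), without any 1 activated array (adjusted p = 0.1004 to 0.118) and without the trend (adjusted p = 0.0927), and without quiescent array 1 the difference was 1.32 (adjusted p = 0.0412) and without quiescent array 3 it was 3.85. Another probe set was 2.88 higher on its own (adjusted p = 0.00164). The change of Eif4ebp1 minus that of Eif4ebp2 was -0.12 (exact permutation p = 0.9, 0.9 adjusted over 8 pairs). Eif4enif1, which carries eIF4E into the nucleus and into P-bodies, read 7.84, 8.33 and 9.65 against 10.45, 10.36 and 10.69, without overlap, and was 1.89 ± 0.46 higher (adjusted p = 0.00931), a call kept under every alternative tried.

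Late initiation and ribosome release factors were higher for 3 of 4 tested members, against 17.3% of all tested genes. Eif5b, which joins the large subunit, read 9.73, 9.57 and 9.88 against 10.66, 11.21 and 10.88, 1.19 ± 0.29 higher (adjusted p = 0.0101). Eif6, which keeps free large subunits apart from small ones and serves their biogenesis, read 9.97, 9.87 and 9.64 against 10.65, 10.42 and 11.33, 0.97 ± 0.32 higher (adjusted p = 0.0392). The Eif6 call was lost in more alternatives than that of any other member, 10 of 18 alternatives, in 5 of which 1 array was left out. Eif5a, the hypusine-bearing factor that relieves stalled ribosomes, was among the brightest members and read 12.81, 13.02 and 12.87 against 13.56, 13.62 and 13.61. The small spread between its arrays let a difference of 0.69 ± 0.21 pass (adjusted p = 0.0278), and its dimmer probe set was 2.30 higher on its own (adjusted p = 0.00176). Both have names marking possible cross-hybridisation. The paralogue Eif5a2 read 8.64, 9.19 and 9.43 against 8.05, 9.38 and 9.51, with overlapping groups and a difference of -0.11 ± 0.47 (adjusted p = 0.875). The change of Eif5a minus that of Eif5a2 was 0.80 (exact permutation p = 0.2, 0.533 adjusted over 8 pairs).

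Among elongation factors, Eef2 was higher, as were 3 of 5 genes grouped with the eEF1 complex, against 17.3% of all tested genes. These 3 include Eef1e1, which belongs to a different complex. Eef1b2, the nucleotide exchange factor of eEF1A, read 11.84, 12.37 and 11.57 on quiescent and 13.40, 13.33 and 13.14 on activated arrays. It was 1.36 ± 0.26 higher, or 2.57-fold (adjusted p = 0.00295), under every alternative tried. Eef1e1, a scaffold of the aminoacyl-tRNA synthetase complex, read 8.67, 8.88 and 8.87 against 10.14, 9.82 and 10.34, 1.29 ± 0.33 higher (adjusted p = 0.012). Eef1a1, which encodes a form of the tRNA carrier eEF1A, read 13.59, 13.61 and 13.68 against 14.20, 14.22 and 14.22. Its replicates lay close together, the groups did not overlap, and the difference was 0.59 ± 0.20 (adjusted p = 0.0463), the smallest called increase. The call was lost without 1 array for 4 of the 6 arrays and without the trend. Eef1a2, the form of muscle and mature neurons, read 4.36, 6.62 and 6.09 against 6.91, 5.70 and 6.73, near background and overlapping (0.76 ± 0.76, adjusted p = 0.46). The changes of this pair differed by -0.17 (exact permutation p = 0.8, 0.9 adjusted over 8 pairs). Eef1d, another exchange factor, was among the brightest members and differed by 0.04 ± 0.24 (95% interval -0.49 to 0.57, adjusted p = 0.905). That probe set has a name marking possible cross-hybridisation. The other probe sets of Eef1d above the filter differed by 0.31 and 2.13 (adjusted p = 0.415 and 0.0132), and the mean of all was called higher (0.88, adjusted p = 0.0499). That mean includes a probe set below the dim filter, which differed by 1.05.

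Eef2 encodes the translocase and Eef2k the kinase that inactivates it. Eef2 read 12.60, 12.95 and 12.26 against 13.46, 13.51 and 13.43 and was 0.86 ± 0.24 higher (adjusted p = 0.0197). The call was lost without any single activated array (adjusted p = 0.0635 to 0.0829) and without the trend (adjusted p = 0.0707). It was also lost with the mean of both probe sets, which gave 0.15 (adjusted p = 0.885). That mean includes a probe set below the dim filter, which differed by -0.57. Eef2k read 12.94, 12.89 and 12.28 against 12.15, 12.57 and 12.78, with overlapping groups, and differed by -0.20 ± 0.28 (adjusted p = 0.597). Within arrays, Eef2 minus Eef2k was -0.34, 0.06 and -0.02 on quiescent arrays and 1.31, 0.94 and 0.65 on activated arrays. All activated values lay above all quiescent ones, a change of 1.065 (exact permutation p = 0.1, the smallest possible, 0.4 adjusted over 8 pairs). The change was -0.02 with the mean of probe sets of each gene, the dim one of Eef2 included. The methyltransferases that modify eEF1A and eEF2 had 0 of 4 called, against 34.9% of all tested genes. They differed by 1.22 (Eef1akmt1), 0.20 (Eef1aknmt), -0.43 (Eef1akmt2) and -0.88 (Eef2kmt). The other probe sets of Eef1aknmt, fitted on their own, differed by -2.50 (adjusted p = 0.0391) and 0.18 (adjusted p = 0.844).

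Probe sets of the same gene did not always go together. Of the 153 probe sets of the members 140 were above the dim filter, and 39 members had at least 2 such probe sets. For 16 of these 39 the differences had both signs. Eif3a, Eif3c, Eif3e, Eif4b, Eif2s3x and Eif5b had every probe set above 0, whereas Eif4h, Eif4e2, Eif2ak1 and Eif2d ranged over both sides. The brightest probe set gave the smallest difference for Eif4a1 and nearly the largest for Eif4ebp2. Where probe sets lie along each transcript is not given in the sources used here.

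**Figure D3:**
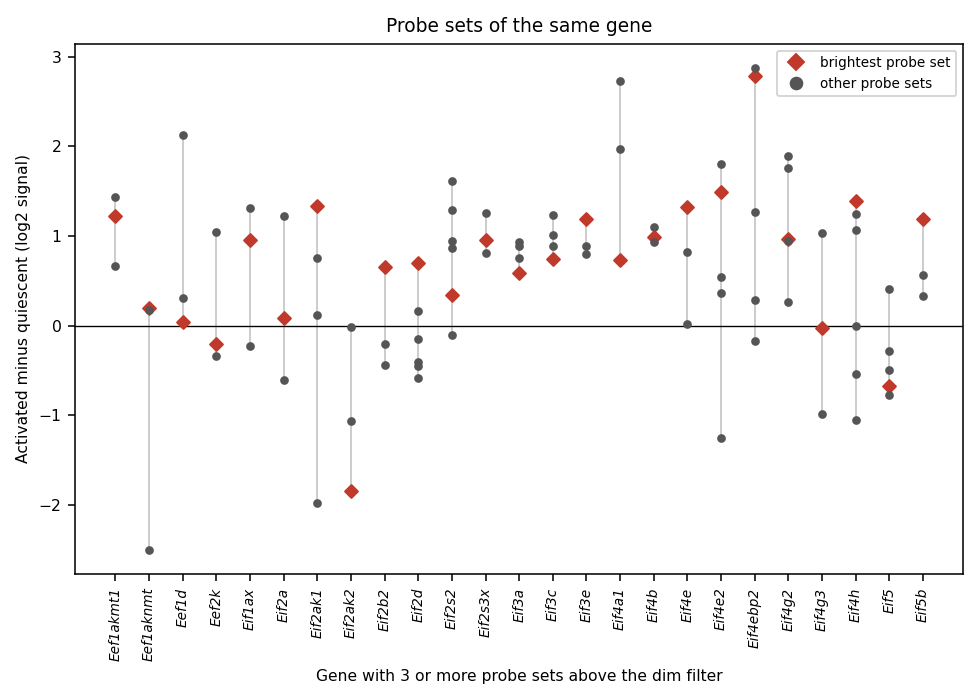
Activated minus quiescent difference in log2 signal (y axis) of every probe set above the dim filter, for the 25 members with at least 3 of them (x axis). Red diamonds are the brightest probe sets, used for the gene, and grey circles the others; in Eif4a1 all lie above 0, from 0.74 to 2.72, while in Eif4h they run from -1.06 to 1.39.

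Genes that work with these factors were taken from a list of 56, of which 52 were tested; 13 were higher and 4 lower, against 17.3% and 17.6% of all tested genes. The poly(A)-binding proteins, which link the mRNA tail to eIF4G, showed the largest increases outside the stress response. Pabpc1 read 8.92, 9.93 and 9.82 on quiescent and 12.66, 12.83 and 12.79 on activated arrays, 3.20 ± 0.32 or 9.21-fold higher (adjusted p = 7.84e-05). Pabpc4 read 7.91, 8.27 and 9.43 against 11.25, 11.21 and 11.57 and was 2.81 ± 0.41 higher (adjusted p = 0.000586), and both were called under every alternative tried. In all 4 of 6 genes of poly(A) binding were higher and 0 lower (limma). In termination and recycling 4 of 8 were higher and 0 lower, led by the release factor Etf1 (1.97 ± 0.39, adjusted p = 0.00355) and the recycling ATPase Abce1 (1.64 ± 0.29, adjusted p = 0.00182). Etf1 read 8.86, 9.59 and 8.73 against 10.66, 10.67 and 11.74, and Abce1 read 9.47, 10.03 and 9.92 against 11.31, 11.71 and 11.31. The mean of the probe sets of Abce1 had the other sign (-0.58, adjusted p = 0.252); it includes 1 probe set below the dim filter that differed by -5.10, while both above the filter were higher, by 1.64 and 1.72. The enzymes that put hypusine on eIF5A and diphthamide on eEF2 had 0 of 7 tested genes called, with a median of 0.38.

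In the mTORC1, S6 kinase and MNK group 1 of 11 tested genes was higher and 1 lower. That is 9.09% each way, against 17.3% and 17.6% of all tested genes. Mtor itself read 11.13, 10.84 and 10.86 against 10.53, 10.58 and 10.60 and differed by -0.37 ± 0.26 (adjusted p = 0.289). Mknk2, a kinase of eIF4E, read 10.39, 10.36 and 10.90 against 11.71, 11.61 and 11.60, 1.09 ± 0.27 higher (adjusted p = 0.0102), a call lost when its probe sets were averaged (adjusted p = 0.118). Pdcd4, which inhibits eIF4A and is degraded after S6 kinase signalling, read 13.79, 13.75 and 13.02 against 12.63, 12.71 and 12.64 and fell by 0.86 ± 0.26 (adjusted p = 0.0269). That call was lost when arrays were scaled by hybridisation controls (-0.22, adjusted p = 0.614), without the trend (adjusted p = 0.0839) and without any single array except quiescent array 3 (adjusted p = 0.0592 to 0.0918). Of 9 tested mitochondrial translation factors 1 was higher (11.1%, against 17.3% of all tested genes), the ribosome recycling factor Mrrf, and 0 were lower (limma). Mrrf read 6.45, 7.24 and 8.54 against 9.503, 9.57 and 9.72, a difference of 2.19 ± 0.53 (adjusted p = 0.00983).

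Of the integrated stress response, the programme set off by the eIF2 kinases, 3 of 11 tested genes were higher and 3 lower. That is 27.3% each way, against 17.3% and 17.6% of all tested genes. Atf4, its central transcription factor, read 11.58, 11.31 and 11.35 against 11.70, 11.58 and 11.15 and differed by 0.06 ± 0.26 (95% interval -0.52 to 0.64, adjusted p = 0.869). That probe set has a name marking possible cross-hybridisation, and without it Atf4 was 1.60 higher (adjusted p = 0.00203). Asns, the asparagine synthetase and a target of ATF4, read 6.30, 7.36 and 6.30 against 10.82, 11.22 and 10.09, 4.06 ± 0.47 or 16.7-fold higher (adjusted p = 0.000174). Chac1, another target, read 2.87, 6.18 and 4.84 against 8.90, 7.15 and 7.74. It was called higher (adjusted p = 0.0152), a call lost without activated array 1 (adjusted p = 0.0743). With the 2 of 3 quiescent arrays at background raised to it, the fold between the means was 4.05. The fitted difference of Chac1 was 3.30 (95% interval 1.35 to 5.25), and 2.42 without quiescent array 1 and 4.08 without quiescent array 2. Gcn1, the coactivator of GCN2, was called higher (adjusted p = 0.0348), a call lost without any single activated array (adjusted p = 0.0802 to 0.089). Quiescent array 1 lay at background, and raising it to background gave a fold of 5.68 between the means. The fitted difference of Gcn1 was 3.08 ± 1.00 (95% interval 0.87 to 5.29), and 1.57, 3.88 and 3.81 without quiescent array 1, 2 and 3. Its other probe sets above the filter differed by 0.51 and 1.09, and neither was called (adjusted p = 0.372 and 0.104). Impact, whose product binds GCN1 and so competes with GCN2, fell by 1.79 ± 0.45 (adjusted p = 0.0117), and Dnajc3, an inhibitor of the eIF2 kinases, by 1.52 ± 0.28 (adjusted p = 0.00247). Impact read 10.29, 10.59 and 9.25 against 8.84, 7.89 and 8.02, and Dnajc3 read 11.36, 11.01 and 11.47 against 9.89, 9.86 and 9.55. Ddit4, which restrains mTORC1 under stress, fell by 1.42 ± 0.28 (adjusted p = 0.00356). The 3 decreases were no longer called when arrays were scaled by hybridisation controls (adjusted p = 0.108 for Impact, 0.117 for Dnajc3 and 0.122 for Ddit4), and Impact also without quiescent array 2 (adjusted p = 0.0519).

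**Figure D4:**
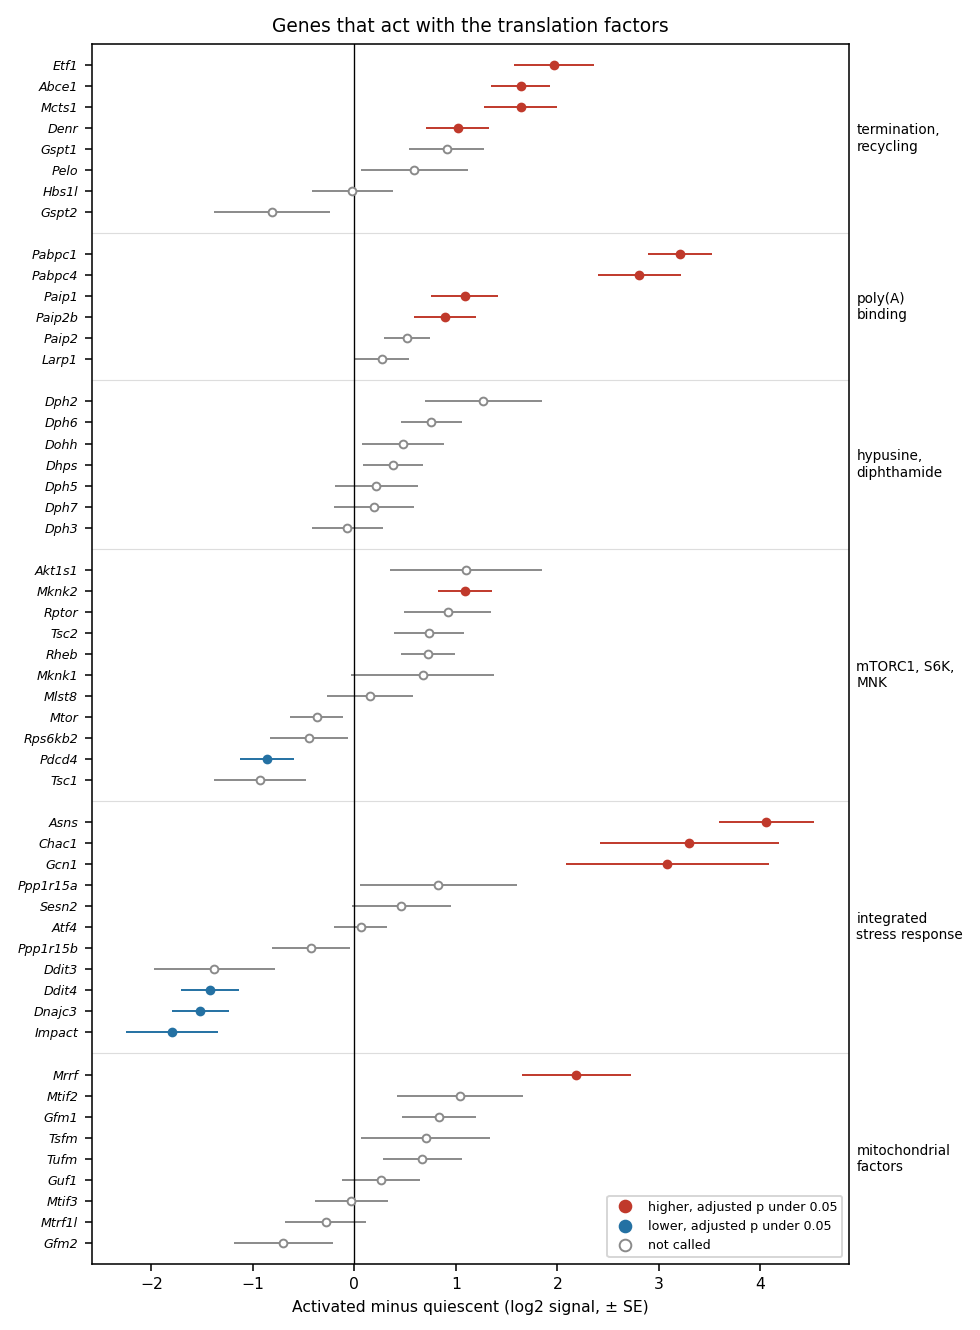
Activated minus quiescent difference in log2 signal (x axis, points with SE bars, 3 arrays per group) for the 52 tested genes that act with the translation factors, by function. Filled red points were higher (13), filled blue points lower (4) at an adjusted p under 0.05, and open points not called; Asns, Chac1, Pabpc1 and Gcn1 lie furthest to the right.

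The replicates set how firm these calls are. Quiescent array 1 was the lowest of its group for 15 of the 27 higher members, and without it 23 members were higher. Of the 6 arrays it had the largest Gapdh 3′ minus 5′ difference (2.59) and the smallest actin one (-0.24). Leaving out activated array 1, 2 or 3 left 16, 12 and 12 higher members, and of all tested genes 12.2%, 11.4% and 12%. Without activated array 1 the calls of Eef1a1, Eef2, Eif1ad, Eif1ax, Eif1b, Eif2b4, Eif4a1, Eif4e2, Eif4ebp2, Eif4g2, Eif5a and Eif6 were lost. Without activated array 2 those of Eef1a1, Eef2, Eif1ad, Eif1ax, Eif1b, Eif2b4, Eif2s3x, Eif3l, Eif4a1, Eif4b, Eif4e2, Eif4ebp2, Eif4h, Eif5a and Eif5b were lost, and without activated array 3 those of Eef1a1, Eef1e1, Eef2, Eif1ad, Eif1ax, Eif1b, Eif2b4, Eif2s3x, Eif3l, Eif4a1, Eif4b, Eif4ebp2, Eif4h, Eif5a and Eif6. Among quiescent arrays, leaving out array 1 ended the calls of Eif3l, Eif4a1, Eif4h and Eif6, array 2 those of Eef1a1, Eif1b, Eif2s3x, Eif4a1, Eif4e2, Eif4ebp2, Eif4h and Eif6 and array 3 those of Eif1ad and Eif6. Without the mean-variance trend 14 members were higher, against 14.8% of all tested genes. Scaling each array to its hybridisation controls moved the median of all tested genes from 0.01 to 0.66 and that of the members from 0.79 to 1.435, with 37 members higher and 0 lower, and with 26.4% of all tested genes higher and 8.15% lower. Of the 28 called members, Eef1b2, Eif3e, Eif3f, Eif3k and Eif4enif1 were called under all alternatives tried.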

How the data were processed

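The deposited values are log2 signals; per the submitters' processing notes the authors made them with MAS5, whose version the sources used here do not give. Per the labels' protocols, total RNA was amplified with a NuGEN Pico kit and labelled with biotin. Of 45101 probe sets, 64 were controls and were set aside. The platform annotation gave 1 gene for 34945, several for 932 and none for 9160, and only the first kind was used. Eif1, Eif2s1, Eif3g, Eif3j1, Eif3j2, Eif4e1b, Eif4g1, Eif4ebp3, Eef1g, Eef1akmt3 and Eef1akmt4 were therefore not analysed here. Symbols were updated by Entrez identifier (99.4% found) through RefSeq of GRCm38.p6. The brightest probe set stood for a gene, and genes with a mean of at least 6.02, the 40th percentile of probe sets, were tested.

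Groups were compared with limma 3.58.1 (lmFit, eBayes with trend) in R 4.3.3, without a replicate block. Background was the 95th percentile of 27 bacterial control probe sets on each array. A fold with arrays raised to background sets the brighter group's mean against the dimmer group's mean after raising its arrays to background. Such a fold does not allow for the spread between arrays. The number of arrays limits the precision. Deviations from the group means correlated by 0.06, -0.02 and 0.03 between arrays of the same replicate number. Between arrays of different numbers they correlated by -0.08 to 0.05. Such values cannot show whether the replicate numbers pair the arrays. The calculation was tested on simulated data. Figures were drawn with matplotlib 3.10.9.

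The members, role groups, marker and partner lists and paralog pairs were chosen with earlier results of these data known. Values on each array are given for up to 4 called members per role with the largest difference, every lower member, the paralog pairs, eIF2 kinases, eIF4E inhibitors and Eef2k, and for Mtor, Atf4 and Pabpc1 or up to 2 called partner genes per list and direction; Eif5, Eif4a3, Ddit4 and Gcn1 were described after their values were seen. Alternatives covered scaling, pseudocount, dim values, filters, probe set rules, variance models, the replicate block and each array left out. Fitting every probe set on its own was chosen after seeing the data.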

Additional observations from a re-analysis of the deposited data

How the results depend on the processing

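The count of 27 higher members was 14 without the trend, and from 12 to 27 with single arrays left out. It was 23 with the replicate block, which changed 4 of the 28 calls (Eef1a1, Eif4a1, Eif5a and Eif6). The 1 lower member became 2 after quantile normalization, 0 after scaling to the hybridisation controls and 0 with the mean of probe sets, and from 1 to 3 without single arrays. The median of 0.79 moved to 1.435 after scaling to the hybridisation controls, and lay between 0.73 and 0.89 without single arrays. Of the partner genes, 21 were higher and 0 lower after scaling to the hybridisation controls, and without single arrays from 8 to 17 were higher and from 2 to 7 lower. Among 1004 values of members under alternatives, 852 kept direction and call, 94 lost the call, 27 gained it, and 29 uncalled values changed sign. The sign of a called member turned in 2 cases, Eif3h with the mean of probe sets (-0.95) and Eif4h without cross-hybridising probe sets (-1.06), as did that of Abce1 with the mean of probe sets (-0.58); the cause was not tested. The mean of probe sets, which takes in those below the dim filter, ended 11 calls and the fit without trend 13. Signals near background, as for Eef1a2 and Eif4e3, limit what can be seen of dim members.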
